A study of Malus x robusta with 27 samples.

Results

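HF39406 is a gene on chromosome 5 of the apple HFTH1 genome, from position 6448370 to 6449647 on the plus strand, and its predicted product carries the pyridoxal-binding domain PF02784 and the C-terminal domain PF00278 of a family of pyridoxal-dependent decarboxylases. It is 1 of 48445 genes in the deposited expression table. The gene was chosen by its FPKM (fragments scaled by gene length and library size), which was high in a strongly fragrant tree and close to 0 in the trees it was compared with, so those differences are given below as a description without a test. Its 1278 bp fill the whole span on the chromosome, so the gene model has no intron, and they encode 425 residues without the stop codon.

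RNA was measured in whole flowers of 3 materials of *Malus robusta*, an ornamental crabapple. SF was a strongly fragrant progeny, WF a weakly fragrant progeny and Mr the standard *M. robusta*, and each was sampled at the early balloon stage (EB, called the small balloon stage in the sample labels), the early flowering stage (ES) and the late flowering stage (LS), with 3 replicates in each of the 9 groups. SF and WF are each a single individual, so their replicates are flowers of a tree, and a difference between SF and WF cannot be told apart from a difference between individual trees. Libraries are named by material, stage and replicate, as in SF_EB_2. In whole flowers, fewer cells that express a gene and less RNA per cell cannot be told apart.

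Pyridoxal-dependent decarboxylases use the cofactor pyridoxal phosphate to remove the carboxyl group of an amino acid and leave an amine. Enzymes with the PF02784 and PF00278 domains are the ornithine, arginine and diaminopimelate decarboxylases, which start polyamine synthesis or end lysine synthesis. A different fold, marked by the domain PF00282, is shared by the glutamate decarboxylases and by the aromatic amino acid decarboxylases, which supply precursors of benzenoid scent compounds in some flowers. The annotation of HF39406 does not hold PF00282, and it does not say which amino acid the enzyme acts on.

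The 27 libraries held 16146228 to 29558381 fragments on genes, with a median of 19419905, and 3 fragments of HF39406 were worth 0.0743 to 0.151 FPKM. SF_LS_1 and Mr_LS_2 held transcripts that the rest of SF or Mr hardly contained. Over 86 genes expressed in WF and near 0 in the other SF libraries, SF_LS_1 had a median of 7.86% of the WF level, and it had 5.10% of the Mr level over 99 such genes. Mr_LS_2 had 16.7% of the WF level over 149 genes and 6.89% of the SF level over 177 genes. HF39406 itself had 1.34 FPKM in Mr_LS_2, against 184 to 217 FPKM in SF at LS. Whether transcripts of SF added to that value was not tested. In the remaining libraries each such median was under 1%. SF_EB_2 lay closer to the 3 ES libraries of SF, with root mean square differences of 0.50 to 0.54 on the log2(FPKM + 1) scale, than to SF_EB_1 (0.59) or SF_EB_3 (0.64). SF_EB_1 likewise lay closer to SF_ES_1 (0.575) and SF_ES_3 (0.575) than to SF_EB_2 or SF_EB_3 (0.87), though further from SF_ES_2 (0.72). SF_EB_3 lay about as far from SF_ES_2 (0.65) as from SF_EB_2. Chlorophyll a-b binding protein genes, a sign of green tissue, summed over 42 genes to 4421 to 8201 FPKM in SF, 3704 to 5875 in WF and 7592 to 15540 in Mr. Much of this sum is HF01786, which averaged 4201 FPKM over the 27 libraries, so the sum does not speak for the other genes. Of 39 tested at ES by limma (adjusted p under 0.05), 11 were higher and 8 lower in SF than in Mr, beside 18.8% and 16.8% of all genes. The part of green tissue in the results below was not tested.

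HF39406 was among the more abundant transcripts of SF flowers at every stage. At EB its FPKM was 113.8, 366.1 and 165.8 in SF_EB_1, SF_EB_2 and SF_EB_3, from 2711, 7584 and 3644 fragments. The middle library stood well above the others, and the mean of 215 ± 133 (SD, n = 3) had a coefficient of variation of 61.9%. At ES the values were 348.5, 325.1 and 307.6 FPKM, from 10381, 8271 and 6605 fragments, with a mean of 327 ± 20.5 (SD, n = 3). At LS they were 183.9, 214.1 and 216.8 FPKM, from 4682, 4448 and 4777 fragments, with a mean of 205 ± 18.3 (SD, n = 3). The coefficients of variation at ES and LS, 6.27% and 8.92%, were far below that at EB. Ranked by FPKM among the 48445 genes, HF39406 stood between place 243 and place 382 at ES, between 592 and 685 at LS, and at places 1378, 276 and 771 in the 3 EB libraries.

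In WF the gene was listed at 0 in 8 of 9 libraries. The exception was WF_ES_1, with 1 fragment and an FPKM of 0.0346. A count of 0 allows up to 3 fragments, which in WF libraries is an FPKM of 0.0743 to 0.126, so expression below that level was not detectable at this depth. All 3 WF groups therefore lay at or under the limit of detection.

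In Mr the gene was low but detected. The FPKM at EB was 0.271, 0.0720 and 0.372, from 9, 2 and 10 fragments, so that the library in the middle lay under the worth of 3 fragments. At ES it was 1.70, 3.87 and 1.81, from 41, 77 and 45 fragments, and at LS 3.02, 1.34 and 3.29, from 71, 33 and 74 fragments. The group means were 0.238 ± 0.153, 2.46 ± 1.22 and 2.55 ± 1.06 FPKM at EB, ES and LS (SD, n = 3 each). The lowest LS value came from Mr_LS_2, the library with transcripts near 0 in the rest of Mr.

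**Figure D1:**
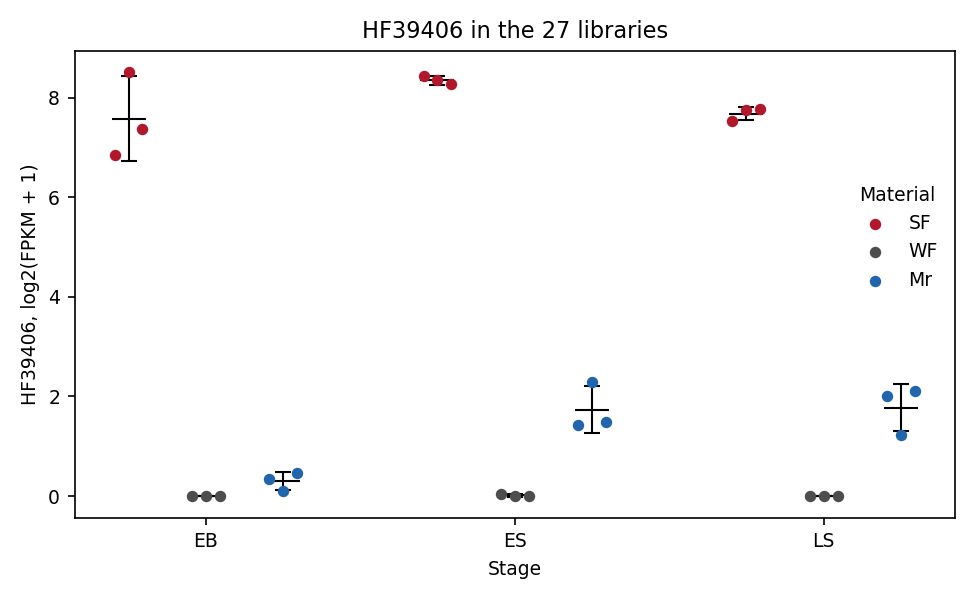
HF39406 in each library on the log2(FPKM + 1) scale (vertical axis), by stage (horizontal axis), with SF in red, WF in grey and Mr in blue. Points are libraries, and black bars are the mean and SD of 3 libraries. All 9 SF libraries, at 113.8 to 366.1 FPKM, sit above every Mr library (0.0720 to 3.87 FPKM) and every WF library (0 to 0.0346 FPKM).

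The FPKM of SF did not overlap with those of WF or Mr at any stage, which for SF and WF was so for 32.4%, 28.2% and 21.2% of the 29660 genes tested at EB, ES and LS, and for SF and Mr for 56.5%, 50.8% and 50.8%. In summed fragments scaled to FPKM, SF at EB stood at least 6829-fold above WF, where all 3 libraries were at 0 and the limit of 3 fragments over the group was used. The corresponding bound at LS was at least 5464-fold. At ES the single WF fragment gave a ratio of 26946, with a 95% exact binomial interval of 4836 to 1064330, which covers counting error only. This ratio rests on a count under the limit of 3 fragments and cannot be compared with the bounds at EB and LS. Against Mr the ratio of SF was 878 at EB (574 to 1418), 139 at ES (119 to 163) and 80.9 at LS (69.8 to 94.3). On the log2(FPKM + 1) scale the difference of SF minus WF was 7.58, 8.34 and 7.68 at EB, ES and LS, and that of SF minus Mr was 7.28, 6.62 and 5.90. The difference from Mr was smaller at ES and LS than at EB on both scales, and the Mr mean was higher at those stages. Of all genes, 5 reached 10 FPKM in every SF library and did not pass 0.5 FPKM in any WF library, namely HF39406, HF11725, HF25588, HF26406 and HF28936. Of these, HF25588 and HF26406 were also at most 0.5 in every Mr library.

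Ordered by mean FPKM, the groups ran SF at ES, SF at EB, SF at LS, Mr at LS, Mr at ES, Mr at EB and then WF. Within SF, the EB libraries overlapped both the ES and the LS libraries, because SF_EB_2 (366.1 FPKM) was the highest of all libraries and SF_EB_1 (113.8) the lowest of SF. The ES and LS libraries of SF did not overlap. Within Mr, ES and LS overlapped, and both lay above EB in every library.

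The changes between stages are a contrast that did not choose the gene, although the libraries are the same, so the tests below are not independent of the choice. DEGs were called by limma on log2(FPKM + 1) at an adjusted p under 0.05, with Benjamini-Hochberg adjustment over 29660 genes. In SF the gene fell between ES and LS, by 0.67 on the log2 scale (SE 0.11, adjusted p = 0.0227), to 205 FPKM at LS against 327 FPKM at ES. In that comparison 9.73% of the 29660 genes were called lower, 19.3% were called in either direction, and the libraries of the stages did not overlap for 44.8% of them. The call was lost when all 9 groups were fitted together (adjusted p = 0.0877), with a replicate block (adjusted p = 0.0780) and without SF_ES_1 (0.0953), SF_ES_3 (0.0666), SF_LS_2 (0.0844) or SF_LS_3 (0.0598). It held without SF_ES_2 (adjusted p = 0.0463) and without SF_LS_1 (0.0138), the library with transcripts near 0 in the rest of SF.

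Between ES and EB in SF the difference was 0.77 (SE 0.43, adjusted p = 0.411 by limma), and between LS and EB it was 0.10 (SE 0.43, adjusted p = 0.890). Neither passed the test, and the libraries of ES and EB overlapped, as they did not for 23.9% of the genes. In the first of these comparisons limma called 0 of 29660 genes, with 5411 (18.2%) at an unadjusted p under 0.05, while voom on the recovered fragments called 17 and a fit of all 9 groups 1285. In the second, 16.1% of genes were called. Both standard errors were larger than that of LS against ES. Without SF_EB_2, the difference of ES minus EB was 1.24 with an adjusted p of 0.0664, and that of LS minus EB was 0.57.

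In Mr, comparisons added after the data were seen, the gene was higher at ES than at EB by 1.44 (SE 0.25, adjusted p = 0.00856 by limma), with 2.46 FPKM at ES against 0.238 FPKM at EB. It was higher at LS than at EB by 1.48 (SE 0.26, adjusted p = 0.00596), with 2.55 FPKM at LS. The libraries did not overlap in either. The background was large, with 23.2% of the genes called higher at ES and 24.2% called higher at LS, and with no overlap for 57% and 59.1% of them. Between LS and ES the difference was 0.04 (SE 0.34, adjusted p = 0.974), where limma called 0 genes, with 4494 (15.2%) at an unadjusted p under 0.05, and voom called 0. Adding 1 to each FPKM understates changes of a gene this low, and voom, which works on the fragments, gave 3.20 for ES against EB. Both Mr calls held with any single library left out, with adjusted p of 0.00476 to 0.0365 for ES and 0.00246 to 0.0278 for LS. Whether the stage changes of SF and Mr differed was not tested.

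**Figure D2:**
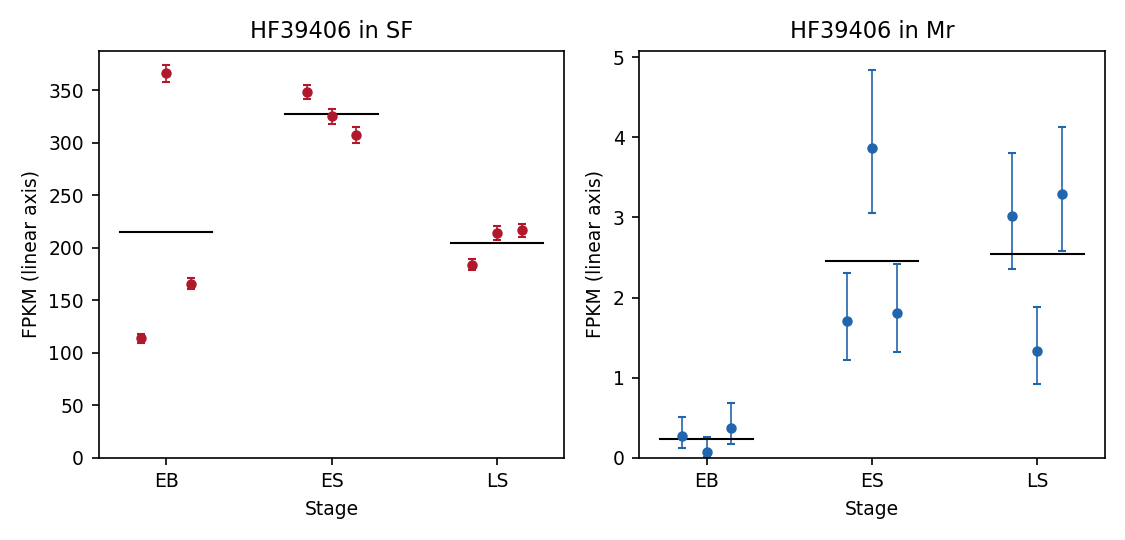
FPKM of HF39406 (vertical axes, linear and of different range) at EB, ES and LS in SF (left) and Mr (right). Points are libraries with 95% exact Poisson intervals of the fragment counts, and black lines are means of 3 libraries. In SF the intervals are narrow beside the distance between the EB libraries (113.8, 366.1 and 165.8 FPKM), while in Mr the 3 EB libraries lie under 0.4 FPKM and the ES and LS libraries between 1.34 and 3.87 FPKM.

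The table holds 4 other genes with both PF02784 and PF00278, and they showed what the rest of this decarboxylase family did in the same flowers. HF02664 on chromosome 10 is the most abundant of them, HF22318 lies on chromosome 5, HF44222 on chromosome 10, and HF22398 on chromosome 5 also carries dihydrofolate reductase and thymidylate synthase domains. This family was taken from the annotation after it had been seen. In WF and Mr, HF39406 was the lowest of the 5 genes in every library. In SF it was second to HF02664 in 7 libraries and the highest in SF_ES_1 and SF_ES_2. At ES its FPKM was 1.19, 1.24 and 0.969 times that of HF02664 in the 3 SF libraries, against 0.00660 to 0.0121 times in Mr. HF39406 made up 41.4%, 45.5% and 46.6% of the summed FPKM of the 5 genes in SF at ES, and 18.8%, 21.95% and 37.7% at EB. At LS it made up 28.9%, 33.6% and 34.5%. Its share was 0.0267% to 0.779% in Mr libraries and at most 0.00655% in WF libraries.

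The other 4 family members did not share the difference between SF and WF. None of them was called between SF and WF by limma at EB, ES or LS, where 7.59%, 8.14% and 3.35% of all genes were called. At EB and ES none had an unadjusted p under 0.05 and at LS 1 did, where 25.2%, 22.2% and 15% of all genes had one at EB, ES and LS, and voom called none at any stage. At ES their median difference of SF minus WF was -0.06, against 0.00 over all genes. HF02664, for example, had 293, 262 and 317 FPKM in SF at ES, against 392, 198 and 385 FPKM in WF, and the groups overlapped.

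Between SF and Mr, 3 of the 4 genes were called at EB, 1 at ES and 2 at LS, where 41%, 35.6% and 32.7% of all genes were called. HF02664 was higher in SF at EB, with 372, 496 and 477 FPKM against 156, 153 and 172 FPKM in Mr, a difference of 1.47 (SE 0.13, adjusted p = 0.000744). The groups did not overlap at that stage. HF22318 was lower in SF at ES, with 35.4, 45.3 and 49.3 FPKM against 110, 114 and 97.4 FPKM in Mr, a difference of -1.29 (SE 0.14, adjusted p = 0.00127). These are the family members that differed most, and both differences held with any library left out. The other 4 calls were of 0.67 or less on the log2 scale, and each was lost when any of 4 or 5 single libraries was left out. They were HF22318 (-0.67) and HF22398 (0.39) at EB, and HF44222 (0.39) and HF22398 (0.44) at LS.

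The stage changes of the family differed from gene to gene. In Mr, HF22318 was higher at ES than at EB by 1.66 (adjusted p = 0.000402 by limma) and HF02664 by 0.74 (adjusted p = 0.0114), while HF44222 was lower by 0.55. HF39406 thus changed in the same direction in Mr as HF02664 and HF22318, in a comparison where 41.9% of all genes were called. In SF, none of the 4 was called between LS and ES, where HF39406 fell and 19.3% of all genes were called. The stages did not overlap for 1 of them, against 44.8% of all genes, and 0 had an unadjusted p under 0.05, against 39% of all genes. Voom called 0 of them there too.

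**Figure D3:**
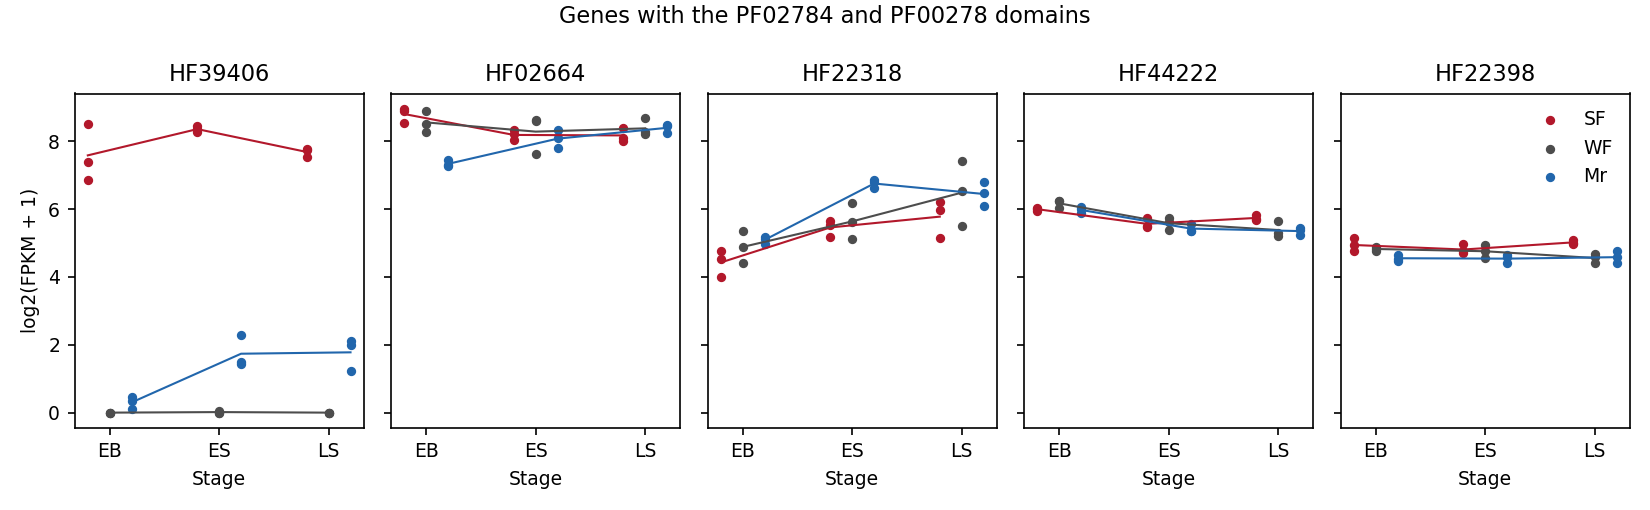
The 5 genes with the PF02784 and PF00278 domains on the log2(FPKM + 1) scale (vertical axis, shared), at EB, ES and LS, with SF in red, WF in grey and Mr in blue. Points are libraries and lines join the means of 3 libraries. The materials lie apart at every stage for HF39406, while at ES the 3 SF libraries of HF02664 (262 to 317 FPKM) lie within the range of the WF libraries (198 to 392 FPKM).

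Polyamine synthesis follows the decarboxylation of ornithine or arginine. The genes of this route were taken by the domains of agmatine deiminase, adenosylmethionine decarboxylase, spermidine and spermine synthase and copper amine oxidase, which gave 31 genes, of which 24 passed the filter on low values. In SF against WF at ES, where HF39406 differed by 8.34, 0 of them were called higher by limma and 2 lower, beside 4.43% and 3.71% of all genes. A copper amine oxidase gene, HF06541, whose enzyme class oxidises amines such as putrescine, had 37.4, 43.4 and 41.8 FPKM in SF, against 111, 77.1 and 81.5 FPKM in WF. Its groups did not overlap, and the difference of -1.10 (SE 0.16, adjusted p = 0.0118) was lost without SF_ES_1 (0.0612), which left 0 of the 24 called. HF26005, with the spermidine and spermine synthase domain, differed by -0.55 (adjusted p = 0.0485), and this call was lost with any library left out. The median difference of the 24 genes was -0.05, against 0.00 over all genes.

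Against Mr at ES, 1 of the 24 polyamine genes was called higher in SF and 5 lower, beside 18.8% and 16.8% of all genes. HF07624, an adenosylmethionine decarboxylase gene, which supplies the aminopropyl donor of spermidine synthesis, had 138, 111 and 137 FPKM in SF, against 897, 971 and 616 FPKM in Mr, a difference of -2.66 (SE 0.20, adjusted p = 0.000385). A further gene of this enzyme, HF42272, had 358, 376 and 313 FPKM in SF, against 918, 997 and 642 FPKM in Mr, a difference of -1.27. The groups did not overlap for either gene. Other genes of this enzyme did not go the same way. HF33479, the most abundant, had 919, 711 and 1028 FPKM in SF, against 969, 1252 and 953 FPKM in Mr. HF29632 had 196, 131 and 385 FPKM in SF, against 227, 259 and 201 FPKM in Mr, and the groups overlapped for both. HF26703 lay higher in SF, at 0.613 to 0.884 FPKM against 0.301 to 0.481 FPKM in Mr. HF06541 and HF09080, both of copper amine oxidases, were lower in SF by 1.50 and 0.95 on the log2 scale. The other tested genes of this class, HF42667 (0.04), HF41360 (0.44), HF13904 (-1.64), HF13902 (-0.22) and HF43333 (-0.11), were not called against Mr. In SF against WF at ES, the differences of HF07624 and HF42272 were 0.15 and -0.09 and did not pass the test.

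The domain PF00282 of the glutamate and aromatic amino acid decarboxylases, which HF39406 lacks, is held by 14 other genes, of which 9 passed the filter. The domain alone does not tell these enzymes apart. None of these was called between SF and WF by limma or by voom at any stage, where 7.59%, 8.14% and 3.35% of all genes were called by limma at EB, ES and LS. An unadjusted p under 0.05 was found for 1, 1 and 0 of them, beside 25.2%, 22.2% and 15% of all genes. Their median differences were 0.09, 0.05 and 0.05. Between SF and Mr, 3 were called higher and 2 lower at EB, 2 higher and 2 lower at ES, and 1 higher and 5 lower at LS. Of all genes, 22.1% were higher and 18.9% lower at EB, 18.8% were higher and 16.8% lower at ES, and 16.4% were higher and 16.3% lower at LS. The count at EB was 3 without SF_EB_3, Mr_EB_1 or Mr_EB_2, and that at LS was 3 without SF_LS_3 or Mr_LS_2. HF24485, the most abundant of them, had 700, 737 and 963 FPKM in SF at ES, against 1004, 561 and 789 FPKM in WF and 1116, 1446 and 919 FPKM in Mr, and the SF libraries overlapped both. HF15125 was higher in SF than in Mr at ES by 1.14 (adjusted p = 0.00535), with 1.09, 1.18 and 2.20 FPKM against 0.138, 0.125 and 0.0668 FPKM in Mr. In WF at ES it had 2.24, 3.86 and 1.36 FPKM. HF29942 was lower in SF than in Mr at ES by 0.97 (adjusted p = 0.00236). HF36960 was higher in SF than in Mr at LS by 1.70 (adjusted p = 0.00365), with 33.3 ± 7.33 FPKM in SF and 9.61 ± 2.12 FPKM in Mr (SD, n = 3 each). The widest difference among the 9 genes was 2.83, for HF15125 in SF against Mr at EB, beside 7.28 for HF39406. At that stage HF15125 averaged 7.22 FPKM in SF and 7.97 FPKM in WF.

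A list of 59 genes, with the PF00282 genes left out, covered the shikimate pathway and the routes from it to phenylalanine and tyrosine. It also held the aromatic amino acid lyases and the amine oxidases, and 44 of the 59 passed the filter. The copper amine oxidases stand in this list and in that of the polyamine route. In SF against WF at ES, 1 was called higher and 3 lower, beside 4.43% and 3.71% of all genes, and without SF_ES_1 a single gene was called. Against Mr, 6 were called higher and 11 lower, beside 18.8% and 16.8% of all genes. The 2 widest falls were those of HF01560 and HF04849, with the domain of the aromatic amino acid lyases that take phenylalanine into phenylpropanoid synthesis, by 3.86 and 3.75 on the log2 scale. HF01560 had 30.8, 17.9 and 6.55 FPKM in SF, against 210, 306 and 215 FPKM in Mr, and the groups did not overlap. In WF, HF01560 and HF04849 were also low, at 5.25 and 10.8 FPKM on average, and neither was called between SF and WF. The more abundant lyase genes HF24990 (403.6 FPKM in SF and 420.4 in Mr) and HF05496 (166.2 and 167.5) were not called against Mr. The tested lyase genes HF31783 and HF06148 were not called either. Prephenate dehydratases act on the way to phenylalanine. Of the 5 genes with that domain, HF06279 and HF17735 were called higher in SF than in Mr, HF40445 was called lower, and HF06024 and HF12280 were not called. HF17735 had 54.6, 49.7 and 54.4 FPKM in SF, against 12.8, 12.9 and 12.4 FPKM in Mr, a difference of 1.98. HF06279 had 3.13, 3.33 and 2.96 FPKM in SF, against 0, 0.0533 and 0.0426 FPKM in Mr, and WF was close to SF with 3.41, 3.10 and 2.93 FPKM. HF40445 had 12.4, 13.2 and 11.4 FPKM in SF, against 21.7, 20.7 and 20.8 FPKM in WF and 22.9, 25.5 and 23.0 FPKM in Mr, and it was lower in SF than in both (-0.73, adjusted p = 0.00789, and -0.89, adjusted p = 0.00113). For the first enzyme of the shikimate pathway, HF44388 was higher in SF than in Mr by 1.03 and HF40942 lower by 1.01. The other tested genes of this enzyme, HF17546 (0.22), HF39508 (0.01) and HF01210 (-0.53), were not called against Mr. Between SF and WF, HF44388 (0.04) and HF40942 (-0.23) were not called.

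On the chromosome HF39406 lies 12.8 kb from the nearest gene upstream (HF39405) and 13.6 kb from the nearest downstream (HF39407). The 10 genes on each side reach out to 138 kb and 289 kb, and 17 of these 20 passed the filter. In SF against WF at ES, 2 of them were called higher by limma and none lower, beside 8.14% of all genes called, and against Mr 3 were called higher and 4 lower, beside 35.6% of all genes called. Their differences ran between -0.39 and 0.87 against WF and between -1.13 and 0.86 against Mr, beside 8.34 and 6.62 for HF39406. HF39407 carries the domains of zinc-binding alcohol dehydrogenases and also PF01633, a choline/ethanolamine kinase domain. It had 992, 848 and 902 FPKM in SF, against 1149, 922 and 687 FPKM in WF and 996, 1082 and 845 FPKM in Mr. The materials overlapped for this neighbour at ES. At LS it averaged 605 FPKM in SF and 300.3 FPKM in WF, without overlap, a difference of 1.08 that did not pass the test (adjusted p = 0.182). At EB it was called higher in SF than in Mr, with 818 FPKM against 374 FPKM in Mr on average (1.05, adjusted p = 0.0471), and this was lost without SF_EB_2, SF_EB_3 or any Mr library. The called genes were named after their values were seen. HF39415, 286 kb downstream, was higher in SF than in both, with 0.933, 1.14 and 1.18 FPKM, against 0, 0.174 and 0.265 FPKM in WF and 0.315, 0 and 0.153 FPKM in Mr. Its difference from WF of 0.87 (adjusted p = 0.0123) was lost without SF_ES_3 (0.0516). That from Mr of 0.86 (adjusted p = 0.00472) held with any library left out. HF39415 reached 1 FPKM only in SF libraries, with at most 0.461 FPKM in any WF library and 0.315 in any Mr library. It passed the filter only through the material where it is high, so its calls are not independent of the filter. HF39413, called lower in SF than in Mr, likewise reached 1 FPKM only in Mr. HF39402, 54.5 kb upstream, was called against WF (61.2 FPKM in SF and 41.0 FPKM in WF on average, 0.57, adjusted p = 0.0458), and that call was lost without any of 5 single libraries. Without SF_ES_3 none of the 17 was called against WF, and 1 was called without SF_ES_1, SF_ES_2, WF_ES_2 or WF_ES_3. Against Mr 4 were called without SF_ES_1 or Mr_ES_1.

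**Figure D4:**
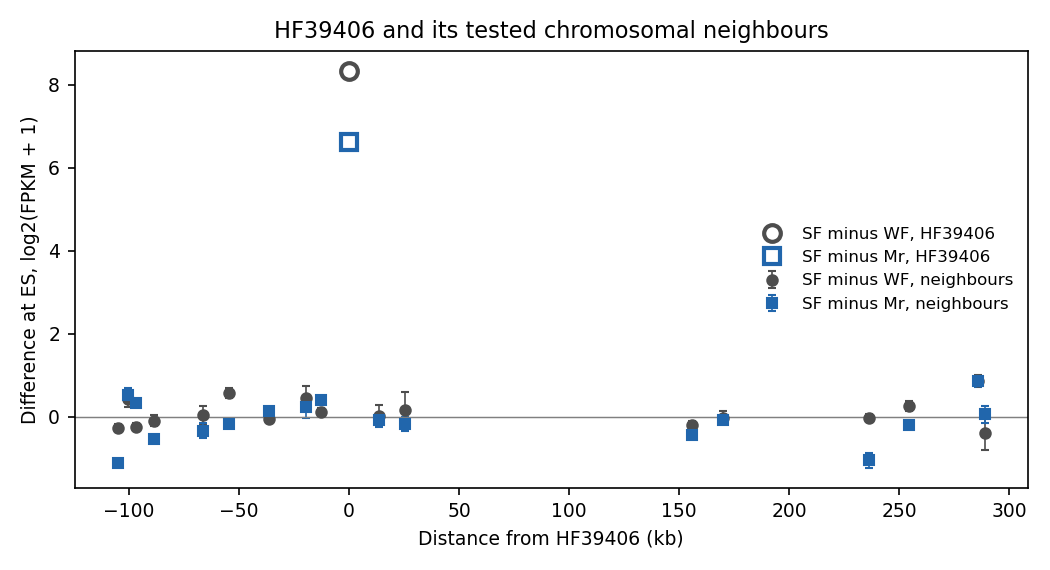
Difference in log2(FPKM + 1) at ES (vertical axis) of the 17 tested neighbours of HF39406 by distance along chromosome 5 in kb (horizontal axis, upstream genes negative), as SF minus WF (grey circles) and SF minus Mr (blue squares), with bars of 1 SE. Open symbols at 0 kb show HF39406 itself, at 8.34 and 6.62, without a test. The neighbours lie between -1.13 and 0.87.

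Across the 27 libraries, the genes whose log2(FPKM + 1) was most like that of HF39406 were HF06941 (Pearson r = 0.985), HF30646 with an Ndr domain, HF19126, HF03225 with an ABC transporter domain and a newly assembled gene, followed by HF24391, HF25588, HF17970 with a glycosyl hydrolase domain, a further newly assembled gene and HF40000 with an NB-ARC domain (r = 0.976). In all, 189 genes had r above 0.9. Over 27 libraries this measure contains the difference of SF from both other materials, which chose the gene, and libraries of a material share a tree or cultivar. Each of the 10 was far less abundant than HF39406. HF25588 had the highest SF mean of them, 21.5 FPKM (15.1 to 29.7), against a mean of 0.0206 FPKM in WF and 0.00822 FPKM in Mr. HF03225 had a mean of 10.4 FPKM in SF and 0.234 FPKM in Mr, and it was listed at 0 in every WF library.

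Within the 9 SF libraries alone, the ranking held other genes. Of 21569 genes that reached 1 FPKM in each SF library, 27 had r above 0.9 with HF39406. The highest were HF05945 (r = 0.964), HF29040 with a xyloglucan endotransglycosylase domain (0.956), HF30413 (0.948), HF24734 with the K-box and SRF domains of MADS-box transcription factors (0.936) and HF06782 with a thioredoxin-like domain (0.931). HF24734 had 67.4, 130 and 79.7 FPKM in SF at EB, 112, 111 and 95.6 FPKM at ES, and 78.6, 80.6 and 80.3 FPKM at LS. It shared with HF39406 the high SF_EB_2 value, above those of SF_EB_1 and SF_EB_3, and lower values at LS than at ES. Unlike HF39406, these 5 genes were expressed in all 3 materials, with means of 92.9 FPKM in SF, 67.9 in WF and 86.7 in Mr for HF24734. These r values describe 9 libraries of 1 tree, in which SF_EB_2 lay near the ES libraries over all genes, and SF_EB_1 near SF_ES_1 and SF_ES_3.

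**Figure D5:**
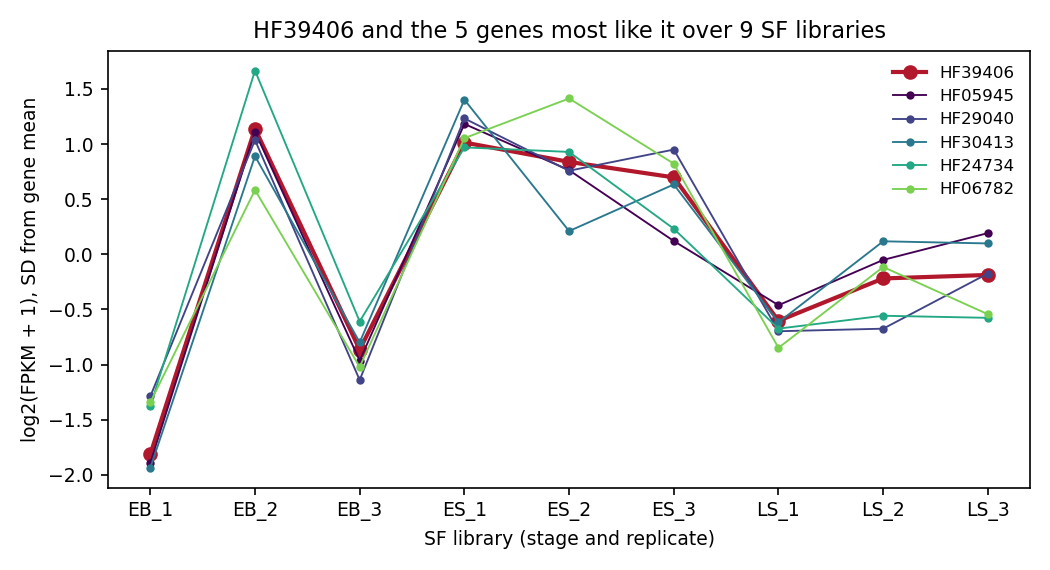
HF39406 (red, thick) and the 5 genes most like it over the 9 SF libraries, each as log2(FPKM + 1) in SD from its own mean over these libraries (vertical axis), by stage and replicate (horizontal axis). Lines only link the points of a gene, since replicates have no order. All 6 genes are lowest in SF_EB_1 and above their own mean in SF_EB_2 and at ES.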

How the data were processed

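RNA of whole flowers was sequenced as 150 bp paired-end reads and mapped by the authors to the apple HFTH1 genome, not to genomes of these trees. The deposited values are FPKM for 48445 genes, with gene lengths in the same table, and 98.1% of the HF gene lengths are multiples of 3 and are read as coding lengths. The submitters' processing notes name StringTie 1.3.3b and DESeq2 1.16.1, while the aligner is not given in the sources used here. After multiplication by gene length, all 771151 values under 1000 fragments were within 0.05 of whole multiples of the step of their library (100%), so fragments were recovered as counts. Each of the 27 columns was matched to a sample, and 0 columns were left over.

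The 29660 genes that reached 1 FPKM in 3 or more of the 27 libraries were tested with limma 3.58.1 with trend in R 4.3.3 on log2(FPKM + 1), on the 2 groups compared, with Benjamini-Hochberg adjustment over all of them, and called at an adjusted p under 0.05. The test was checked on simulated data. Python 3.11.15, numpy 2.4.6, pandas 2.3.3, scipy 1.17.1 and matplotlib 3.10.9 were used for intervals and plots. Intervals and the limit of 3 fragments cover counting error only. The study calls the replicates biological. Those of SF and WF come from a single individual each, so their p-values measure the spread between flowers of a tree, and how many Mr trees the replicates cover is not given in the sources used here. Replicate numbers were not taken as pairs in the main test. In no comparison were all 3 correlations of same-numbered libraries above 0.1, though that of replicate 2 in SF against WF at ES was 0.55. With 3 libraries per group, this check cannot decide whether same-numbered libraries were paired.

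The gene, the lists and the tests were chosen with earlier results of these data known. Named were HF39406, the PF00282 genes, the 10 genes on each side on the chromosome, the genes most like HF39406 by Pearson r (10 over all libraries and 5 over SF) and the pathway genes with the largest differences at ES. The PF02784 family, the polyamine list and the Mr stage comparisons were added after the data were seen, and genes making up counts of 5 or fewer were named after their values were seen. As alternatives, the pseudocount was set to 0.1, the filter was dropped or raised to 9 libraries, values were scaled by total fragments, the 9 groups were fitted together, the replicate number was taken as a block, limma voom was run on the recovered fragments and each library was left out. No sequence is printed because none was used here.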

Additional observations from a re-analysis of the deposited data

Results flagged for a closer look

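For 2 genes of the context lists, the 3 libraries of ES lay entirely below the 3 libraries of EB in SF and entirely above them in Mr. Over all genes, the libraries of ES and EB did not overlap for 23.9% in SF and 57% in Mr. HF02664, of the same domain family as HF39406, had an ES minus EB difference of -0.62 in SF and 0.74 in Mr on the log2(FPKM + 1) scale, which was not called in SF (adjusted p = 0.140 by limma) and was called in Mr (0.0114). HF36961, with PF00282, had -0.35 in SF and 0.27 in Mr, neither of them called (adjusted p = 0.295 and 0.114). The difference between the materials was not tested. HF39406 itself had 0.77 in SF, with overlapping stages, and 1.44 in Mr.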

How the results depend on the processing

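The limits of these data are 3 libraries per group, single trees for SF and WF, and counts of 0 in WF that allow up to 3 fragments. No called result changed direction under the alternatives run. For HF39406 the fall in SF between ES and LS was -0.67 with all 9 groups (adjusted p = 0.0877) and with a replicate block (0.0780), both no longer past the threshold, and -0.72 to -0.60 with a library left out. With a library left out, ES minus EB in SF was 0.40 to 1.24, LS minus EB in SF -0.27 to 0.57, ES minus EB in Mr 1.162 to 1.59, LS minus EB in Mr 1.32 to 1.75, and LS minus ES in Mr -0.12 to 0.32. Counts of called genes also moved. Of the PF00282 genes against Mr at EB, 3 were called with no filter and 3 with a replicate block, in place of 5, and 3 to 6 with a library left out, while at ES it was 3 to 5 and at LS 3 to 7 (3 without SF_LS_3 or Mr_LS_2). Of the neighbours against WF at ES, 1 was called with no filter, the stricter filter, all 9 groups, a replicate block and voom, and 0 to 2 with a library left out, and against Mr 3 with a replicate block and 4 to 7 with a library left out. Of the polyamine genes against WF at ES, 1 was called with no filter, total fragments, a replicate block and voom, and 0 to 2 with a library left out (0 without SF_ES_1), and against Mr 4 to 7. Of the aromatic amino acid genes at ES, 1 to 5 were called against WF and 13 to 17 against Mr with a library left out. The replicate block changed no other call on HF39406. In all, 579 of 687 alternatives of single genes named kept their side of the threshold. Of the alternatives of these counts and stage changes, 224 of 260 were scored as the same. For a stage change this meant the same side of the threshold. For a count it meant an equal number called, or a larger count of at most 3/2 of the smaller, so such counts could still move. The causes were not tested.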
